A study of Mus musculus with 48 samples.

Results

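The matrix metalloproteinases (MMP), the ADAMTS proteases, the ADAMTS-like proteins (ADAMTSL) and the tissue inhibitors of metalloproteinases (TIMP) were followed through 2 differentiation courses of mouse cells. The set holds every gene whose symbol is Mmp, Adamts, Adamtsl or Timp followed by digits and an optional letter, which gave 51 of the 55450 genes in the expression tables: 23 MMP, 19 ADAMTS, 5 ADAMTSL and 4 TIMP genes. The choice used symbols alone and no measured value. Cells came from C57BL/6 mice that were wild type (WT) or lacked the chromatin-binding proteins HMGN1 and HMGN2 (DKO, double knockout), so the cells carried the loss before they were cultured. White preadipocytes were isolated from the inguinal white adipose tissue (iWAT) of adult mice, and mouse embryonic fibroblasts (MEFs) from embryos. After confluency both were turned towards brown-like adipocytes with insulin, dexamethasone, IBMX, T3 and rosiglitazone and then kept in insulin and T3. WT and DKO cells had the same agents. The first medium was given for 4 days to iWAT cells and for 8 days to MEFs. Days 6 and 9 of iWAT cells and day 12 of MEFs thus came after the change of medium. RNA was sequenced at days 0, 3, 6 and 9 of iWAT cells and at days 0, 4, 8 and 12 of MEFs, with 3 WT and 3 DKO libraries on each day, 48 libraries in all. The sources used here name no sort of either kind of cell after isolation, so the cultures could hold other cell types.

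MMPs are zinc enzymes that are made as inactive proenzymes and cut collagens, gelatin and other matrix proteins once their propeptide is removed. ADAMTS proteases trim procollagens or cut proteoglycans such as aggrecan and versican, ADAMTSL proteins resemble them but lack the protease domain, and TIMPs bind and block the active enzymes. Fat cell precursors sit in a fibrillar collagen matrix that is remodelled as they round up and fill with lipid, and the membrane enzyme MMP14, the gelatinase MMP2 and the TIMPs belong to the best known parts of that process.

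Levels are given as CPM, read counts scaled to a common library size over the 24 libraries of a cell type, and n was 3 libraries in every group. A gene was called changed where edgeR's quasi-likelihood test gave a Benjamini-Hochberg adjusted p below 0.05 and the fitted change was at least 1.5-fold. Library totals ran from 18962483 to 36006696 counts, with a median of 23978864. Hmgn2 was at most 0.329 CPM in the 24 DKO libraries and 32.4 to 198 CPM in the 24 WT libraries, so the labels held for this gene. Hmgn1 kept counts in DKO cells (69.7 to 114 CPM, against 77 to 218 CPM in WT), and since the sources used here do not say which part of that gene is removed, its gene-level count checks nothing. Of the lists of other cell types, macrophage markers summed to 32.5 to 10002.7 CPM in iWAT cultures and 3114.5 to 9296.3 CPM in MEFs. Markers of mural and smooth muscle cells summed to 30.4 to 4495.0 CPM in iWAT cultures and 59.5 to 827.5 CPM in MEFs. Neutrophil markers reached at most 1.01 and 3.31 CPM, and skeletal muscle markers 0.137 and 1.36 CPM. Fewer cells of a type and less RNA per cell cannot be told apart in these bulk libraries.

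Several libraries stood apart from the others of their group. In iWAT cells one was replicate 2 of DKO on day 9, which had the highest Mmp9, Mmp14 and Adamts5 of its group. Among MEFs it was replicate 1 of WT on day 4, and replicate 2 of WT and replicate 3 of DKO on day 8. Replicate 2 of DKO on day 0 was also taken as such, but that choice was not clear. The chi-square of counts per degree of freedom was 168.2 between replicates 1 and 2, 106.8 between 1 and 3 and 110.7 between 2 and 3. Markers of preadipocytes and fibroblasts summed there to 11857.3, 5153.2 and 6252.9 CPM, which set replicate 1 apart instead. The fat cell gene Adipoq was at 19.7 CPM in the WT day 8 library and at 18.4 CPM in the DKO day 8 library, against 244 to 387 CPM in the other 4 libraries of that day. Replicate 1 of DKO iWAT cells was also the farthest from the others on day 0, with a chi-square of counts per degree of freedom of 62.1 and 59.2 against 31.6 between the others, and on day 3, with 56.6 and 78.1 against 22.8; leaving it out left 0 called members on both days. Counts of members that rest on the other libraries are given with and without them below.

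Of the 51 genes, 44 had enough reads to be tested in at least 1 of the 18 comparisons made, and 31 were tested in each of them. The 7 never tested were Adamts13, Mmp1a, Mmp1b, Mmp7, Mmp20, Mmp21 and Mmp24, whose highest count in any library was 19, reached by Mmp1b. Side by side lie 10 MMP genes on chromosome 9 between positions 7272514 and 7699585 of the mm10 build, a stretch of 427.1 kb that holds Mmp13, Mmp12, Mmp1b, Mmp3, Mmp1a, Mmp10, Mmp8, Mmp27, Mmp20 and Mmp7. Mmp1b and Mmp12 overlap there on opposite strands, and because the sources used here do not give the strand setting of the counting, reads of the shared stretch cannot be assigned with certainty.

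Promoter sequence is shown for 4 genes of the cluster because these neighbours took different courses in the results below. The 100 bases before the start of each are printed from RefSeq on GRCm38.p6, the build also called mm10, 5′ to 3′ on the plus strand, and capitals mark the AP-1 motif TGANTCA, which is its own reverse complement. The windows are chr9:7272414-7272513 for the collagenase gene Mmp13, chr9:7445722-7445821 for the stromelysin gene Mmp3, chr9:7502242-7502341 for the stromelysin gene Mmp10 and chr9:7558329-7558428 for the collagenase gene Mmp8.
Mmp13: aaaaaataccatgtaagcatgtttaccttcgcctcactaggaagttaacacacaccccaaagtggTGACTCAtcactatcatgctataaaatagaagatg
Mmp3: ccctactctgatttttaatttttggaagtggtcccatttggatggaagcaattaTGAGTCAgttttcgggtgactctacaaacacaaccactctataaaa
Mmp10: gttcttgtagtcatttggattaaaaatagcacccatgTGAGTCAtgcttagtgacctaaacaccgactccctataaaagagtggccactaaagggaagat
Mmp8: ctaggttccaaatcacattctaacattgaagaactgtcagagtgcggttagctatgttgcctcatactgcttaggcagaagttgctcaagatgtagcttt
The motif begins at position -35 in Mmp13, at -46 in Mmp3 and at -63 in Mmp10, counted from the annotated start, and the Mmp8 stretch has no match. A RefSeq window of 250 bases before to 50 bases after the start was at hand for 36 of the 51 genes, in 39 windows. The motif was found in 8 of the 10 cluster genes, Mmp8 and Mmp27 being the exceptions, and in 0 of the 26 other members, while 2565 of all 32851 promoter windows, 7.81%, held it. A match is a description of the letters and says nothing of what binds there.

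Per kilobase of transcript, the inhibitors and a small number of enzymes made up most of the set's RNA. In WT iWAT preadipocytes on day 0 the order of mean RPKM (CPM divided by the exon length in kilobases) was Timp1 633 ± 73.8, Timp2 422 ± 71.2, Timp3 419 ± 146, Mmp3 220 ± 32.9, Mmp2 174.5 ± 27 and Mmp14 131 ± 2.48 (SD, n = 3), where Timp2 and Timp3 did not differ beyond their spread. In WT MEFs on day 0 it was Timp2 366.5 ± 26.5, Timp3 268 ± 34.2, Mmp2 204 ± 4.47, Mmp14 132 ± 1.29 and the proteoglycan-cutting Adamts1 85.1 ± 8.38. Timp1, the top member in iWAT cells, was seventh in MEFs at 44.5 ± 1.39 RPKM. Timp4 was among the lowest in both, at 0.015 ± 0.00765 and 0.147 ± 0.0364 RPKM.

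The balance of the summed families shifted as cells differentiated. Summed TIMP RPKM in WT iWAT cells went from 1474 ± 274 on day 0 to 1627 ± 360.0 on day 3, 536 ± 32.2 on day 6 and 461 ± 17.3 on day 9. Summed MMP RPKM went from 629.0 ± 68.1 to 615 ± 60.3, 348 ± 37.1 and 511 ± 87.5 on the same days. The TIMP sum was thus above the MMP sum on days 0, 3 and 6, and on day 9 the ranges of these sums overlapped. Of the day 9 MMP sum, 279 ± 85.9 RPKM came from Mmp9 alone, which was at 8.81 ± 2.76 RPKM on day 6. In WT MEFs the TIMP sum fell below the MMP sum: it was 679.0 ± 9.07 against 512.5 ± 6.5 RPKM on day 0 and 378.5 ± 6.79 against 565 ± 6.62 RPKM on day 12. These sums are descriptions and were not tested.

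Differentiation moved most members of WT iWAT cells. On day 3, 23 of the 42 tested members were called against day 0 (8 higher and 15 lower), where 23.2% of all genes tested were called. On day 6 it was 30 of 42 (8 higher, 22 lower; all genes 52.1%), and on day 9 it was 32 of 42 (11 higher, 21 lower; all genes 51.8%, made up of 25.2% higher and 26.5% lower). The median member fell by 0.73 on the log2 scale by day 9, while the median of all genes was -0.02, and setting genes with 0 counts to a floor of 3 counts over the group left it at -0.73. DKO iWAT cells gave 30 of 42 on day 9 (6 higher, 24 lower, all genes 56.4%). In WT iWAT cells markers of mural and smooth muscle cells summed to 3243.0 to 3814.8 CPM on day 0. On day 9 they summed to 37.6 to 150.1 CPM, with 5 of 5 called lower. Markers of preadipocytes and fibroblasts went from 11734.1 to 12267.7 CPM on day 0 to 3894.9 to 4472.4 CPM on day 9. Of these 8 genes, 4 were called lower and 1 higher. The part of both lists in the member changes was not tested.

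**Figure D1:**
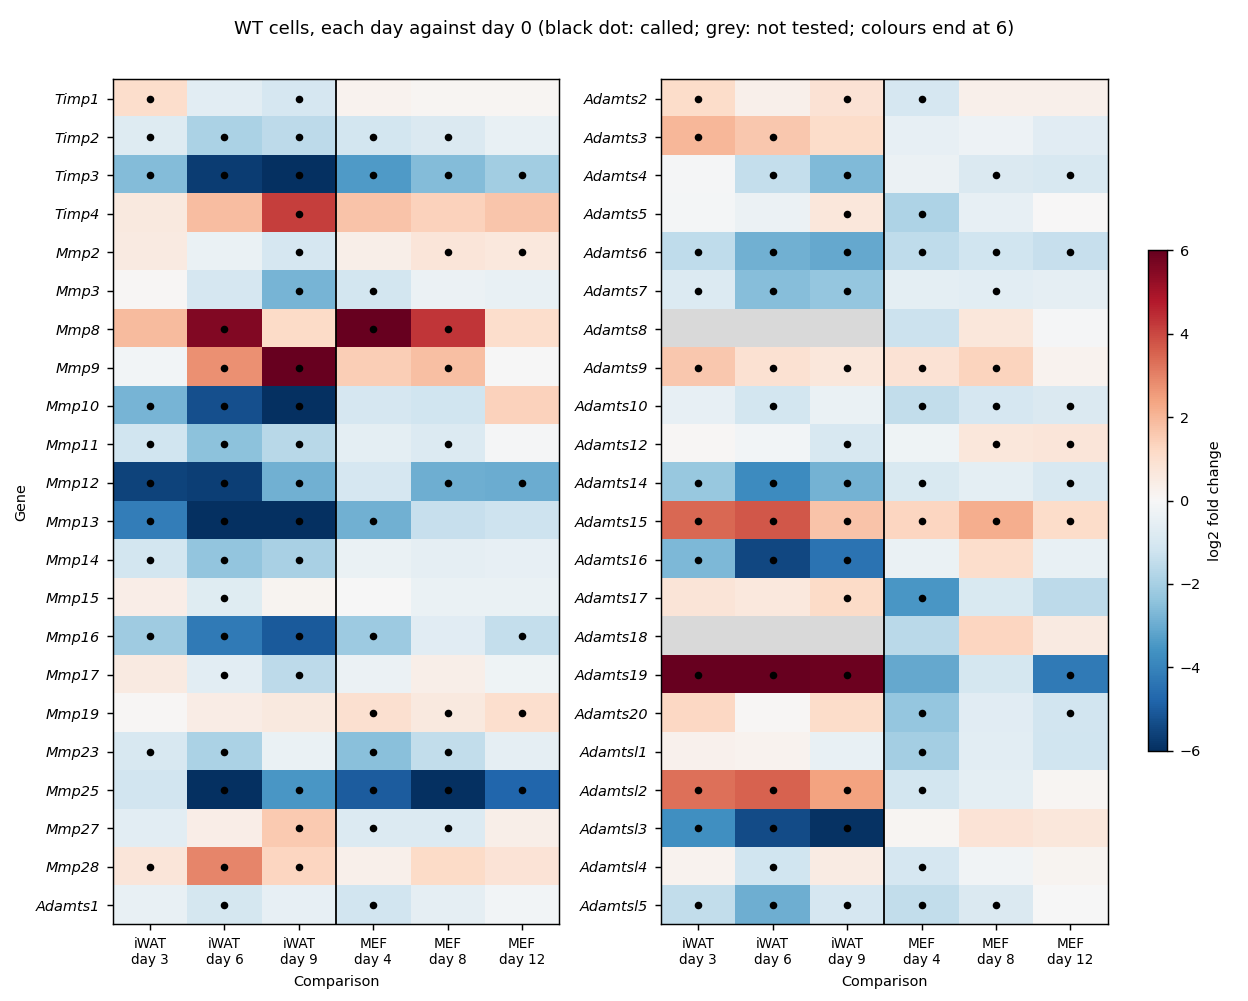
Colour gives the log2 fold change of each tested member in WT cells against day 0 (rows are genes, columns are days of iWAT cells and MEFs; colours end at the limit in the title, a black dot marks a called change and grey an untested one). Falls outnumber rises in both cell types, Timp3, Mmp13 and Mmp16 fall on every iWAT day, and the iWAT colours of Adamts19 are fitted against 0 counts.

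In WT MEFs, 24 of 44 tested members were called on day 4 (4 higher, 20 lower; all genes 31.6%), on day 8 it was 19 of 44 (7 higher, 12 lower; all genes 27.7%), and on day 12 it was 14 of 44 (4 higher, 10 lower; all genes 24%, made up of 13.4% higher and 10.6% lower). The median member was at -0.22 on day 12, against 0.00 for all genes. DKO MEFs gave 16 of 44 on day 12 (1 higher, 15 lower; all genes 28.3%), with a median of -0.63. The heat map of WT cells against day 0 shows both courses side by side.

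Timp3, the inhibitor that binds to the matrix itself and blocks ADAMTS enzymes as well as MMPs, had the steepest fall among the inhibitors. Its 3 WT iWAT libraries held 2825, 4776 and 2632 CPM on day 0, 939, 521 and 217 on day 3, 66.6, 62.1 and 70.6 on day 6, and 67.3, 30.9 and 34.3 CPM on day 9. No day 9 library came near a day 0 library, and the log2 fold change was -6.27 (SE 0.68, adjusted p = 1.67e-07). In WT MEFs Timp3 went from 2011, 2502 and 2029 CPM on day 0 to 296, 169 and 165 on day 4 and 513, 515 and 528 on day 12 (day 12 log2 fold change -2.07, SE 0.34, adjusted p = 0.000111). The fall was thus present in both cell types, was deepest on day 4 of the MEF course, and was partly reversed there by day 12.

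Timp1 and Timp2 took other courses. Timp1, which inhibits most secreted MMPs, rose in WT iWAT cells from 549.6, 634 and 504 CPM on day 0 to 1306, 1338 and 852 on day 3 (log2 fold change 1.05, SE 0.30, adjusted p = 0.00848) and then fell to 297, 263 and 269.6 on day 9 (-1.02 against day 0, SE 0.30, adjusted p = 0.00496). In WT MEFs it stayed between 27.4 and 52.7 CPM in all 12 libraries and no day was called; its day 12 change was 0.12, or -0.02 when scaled by library size alone. Timp2, the inhibitor that also takes part in the activation of pro-MMP2 on MMP14, fell in WT iWAT cells from 1358, 1912 and 1661 CPM to 534, 569 and 584 on day 9 (-1.55, SE 0.20, adjusted p = 1.41e-06). In WT MEFs it was at 1486, 1308 and 1489 CPM on day 0 and 673, 669 and 675 on day 4, a called fall (-1.09, SE 0.10, adjusted p = 7.64e-08), and at 1061, 1029.9 and 1016 on day 12, where the change of -0.46 was below the fold limit.

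Timp4, an inhibitor known from heart and fat tissue, was the only inhibitor to end higher in WT iWAT cells. From 0.0409, 0.131 and 0.0931 CPM on day 0, which are 1, 3 and 2 counts, it reached 1.83, 1.26 and 1.87 CPM on day 9, from 35, 29 and 39 counts (log2 fold change 4.16, SE 0.75, adjusted p = 7.1e-05). In WT MEFs it was at 0.77, 0.717 and 1.11 CPM on day 0 and 2.91, 2.65 and 2.77 on day 12, higher in each library, and the change of 1.68 had an adjusted p = 0.126. The panels of the 4 inhibitors show these courses library by library.

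**Figure D2:**
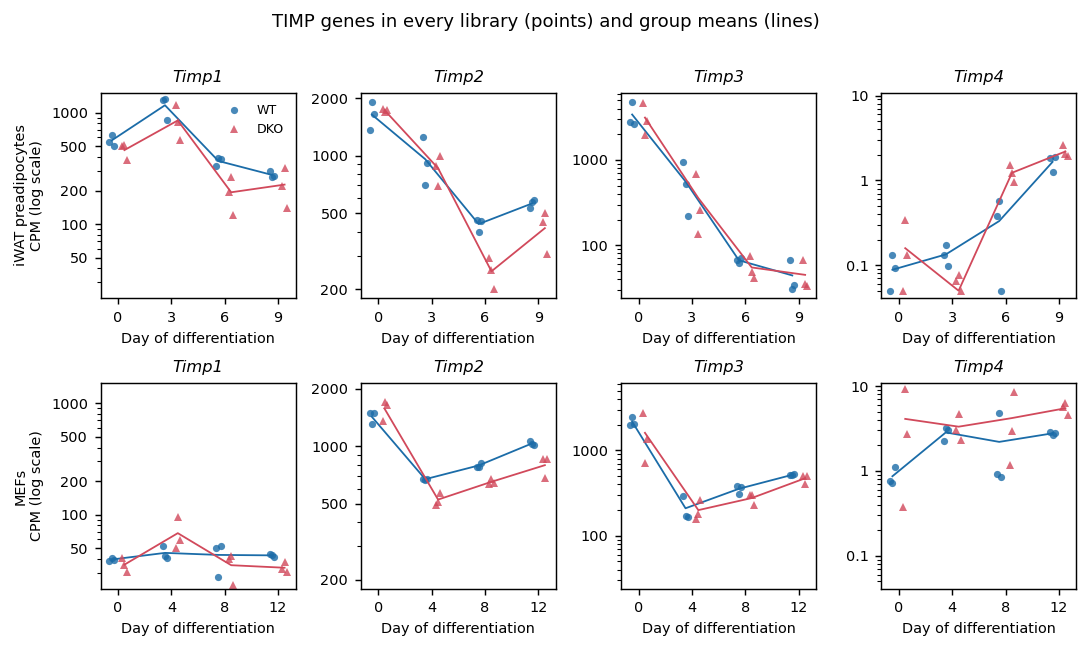
CPM on a log axis of Timp1, Timp2, Timp3 and Timp4 (columns) in iWAT cells and MEFs (rows) against day of differentiation, each point 1 library, lines joining group means, WT and DKO by colour and marker, with values under 0.05 CPM drawn at 0.05. Timp3 falls from 2632 to 4776 CPM to 30.9 to 67.3 CPM in WT iWAT cells, Timp4 rises, and on iWAT day 6 the DKO points of Timp1 and Timp2 lie below the WT points and those of Timp4 above.

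Among the genes of the chromosome 9 cluster, Mmp13, Mmp10 and Mmp3 were called lower in WT iWAT cells on day 9. Mmp13, a collagenase, went in WT iWAT cells from 46.4, 16.2 and 18.1 CPM on day 0 to 1.63, 2.14 and 0.823 on day 3 and 0.0523, 0.304 and 0.287 on day 9 (log2 fold change -6.90, SE 0.63, adjusted p = 1.45e-08). Mmp10, which cuts many matrix proteins and activates other MMPs, went from 11.7, 3.79 and 10.7 CPM to 0.0523, 0.13 and 0.0958 (-6.45, SE 0.63, adjusted p = 2.66e-08), the last from 1, 3 and 2 counts. Mmp3, its neighbour, was still at 610.5, 378 and 259 CPM on day 3 and fell to 55.4, 64.5 and 49.1 on day 9, from 433, 327 and 427 on day 0 (-2.81, SE 0.48, adjusted p = 4.7e-05).

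The macrophage elastase gene Mmp12 fell early and came back in part. It held 23.6, 3.48 and 6.33 CPM in WT iWAT cells on day 0, 0.22, 0.128 and 0.329 on day 3 and 1.05, 1.04 and 2.44 on day 9 (-2.88, SE 0.72, adjusted p = 0.00171). In WT MEFs it fell from 9.87, 22.9 and 11.7 CPM to 2.17, 1.96 and 1.41 on day 12 (-3.00, SE 0.72, adjusted p = 0.00304). Mmp13 and Mmp3 of WT MEFs were lower in each day 12 library than in each day 0 library, with changes of -1.25 (adjusted p = 0.235) and -0.46 (adjusted p = 0.383).

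Mmp8, the collagenase stored by neutrophils, was high on day 6 only in WT iWAT cells. It was at 0.327, 0.131 and 0.326 CPM on day 0, 0.353, 1.71 and 0.889 on day 3, 9.77, 13.1 and 14.4 on day 6 and 0.418, 0.696 and 0.623 CPM on day 9. The day 6 libraries lay above all others of this genotype (log2 fold change 5.54 against day 0, SE 0.77, adjusted p = 3.79e-06). WT MEFs had 1.17, 20.4 and 17.8 CPM on day 4, where the library that stands apart gave the low value, and 0.246, 0.4 and 0.396 CPM on day 12. Neutrophil markers summed to 0.424 to 0.489 CPM in the WT iWAT libraries of day 6. In the WT MEF libraries of day 4 they summed to 0.914, 3.31 and 2.82 CPM, and S100a8, the 1 marker tested, was called higher than on day 0. Their part in the Mmp8 values was not tested. Mmp27, the next gene of the cluster, also ended higher in WT iWAT cells, going from 2.37, 1.44 and 1.21 CPM on day 0 to 2.52, 2.35 and 1.82 on day 6 and 5.65, 6 and 3.3 on day 9 (1.57, SE 0.41, adjusted p = 0.00235).

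Mmp9, the gelatinase known from macrophages and osteoclasts, was the member that rose most in WT iWAT cells. Its libraries held 7.81, 2.13 and 3.86 CPM on day 0, 42.4, 24.5 and 26.7 on day 6 and 704, 1308 and 946 CPM on day 9 (log2 fold change 7.73, SE 0.98, adjusted p = 1.26e-06). With 279 ± 85.9 RPKM it was second only to Timp1, at 311 ± 20.6 RPKM, and the ranges of the 2 genes overlapped. In WT MEFs Mmp9 stayed between 0.981 and 5.28 CPM on all days, and only day 8 was called (1.80, SE 0.70, adjusted p = 0.0446). The day 8 call was lost when some library was left out. Of the macrophage markers 8 of 8 were called higher than on day 0 both on day 6 (median log2 fold change 4.54), when they summed to 5877.7 to 10002.7 CPM, and on day 9 (median 4.41), when they summed to 3156.9 to 6398.4 CPM. On day 6 Mmp9 was at 24.5 to 42.4 CPM. In WT MEFs the macrophage markers summed to 7149.2 to 9296.3 CPM on day 0 and 4847.7 to 4901.9 CPM on day 12. Their part in the Mmp9 change was not tested.

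The osteoclast enzyme genes Acp5 and Ctsk were highest in the same WT and the same DKO library of day 9 as Mmp9. Acp5 was picked after its values were seen, Ctsk came from the list of matrix proteases, and no list of osteoclast markers was set beforehand. Acp5 was at 190.2, 327 and 207 CPM in the WT libraries of day 9 and at 16.9, 181 and 14.7 CPM in the DKO libraries. Ctsk was at 221, 415 and 252 CPM in WT and 36.9, 239.7 and 42.6 CPM in DKO. Mmp9 itself was at 64.4, 573 and 60.5 CPM in DKO, so the same DKO library was highest for all 3 genes. That library, replicate 2, stood apart in part by its high Mmp9, and Ctsk and Mmp9 ordered the remaining DKO libraries differently. Over the days Ctsk did not follow Mmp9. In WT iWAT cells Ctsk was called lower on day 6 than on day 0 and was not called on day 9. What the 3 genes share was not tested.

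**Figure D3:**
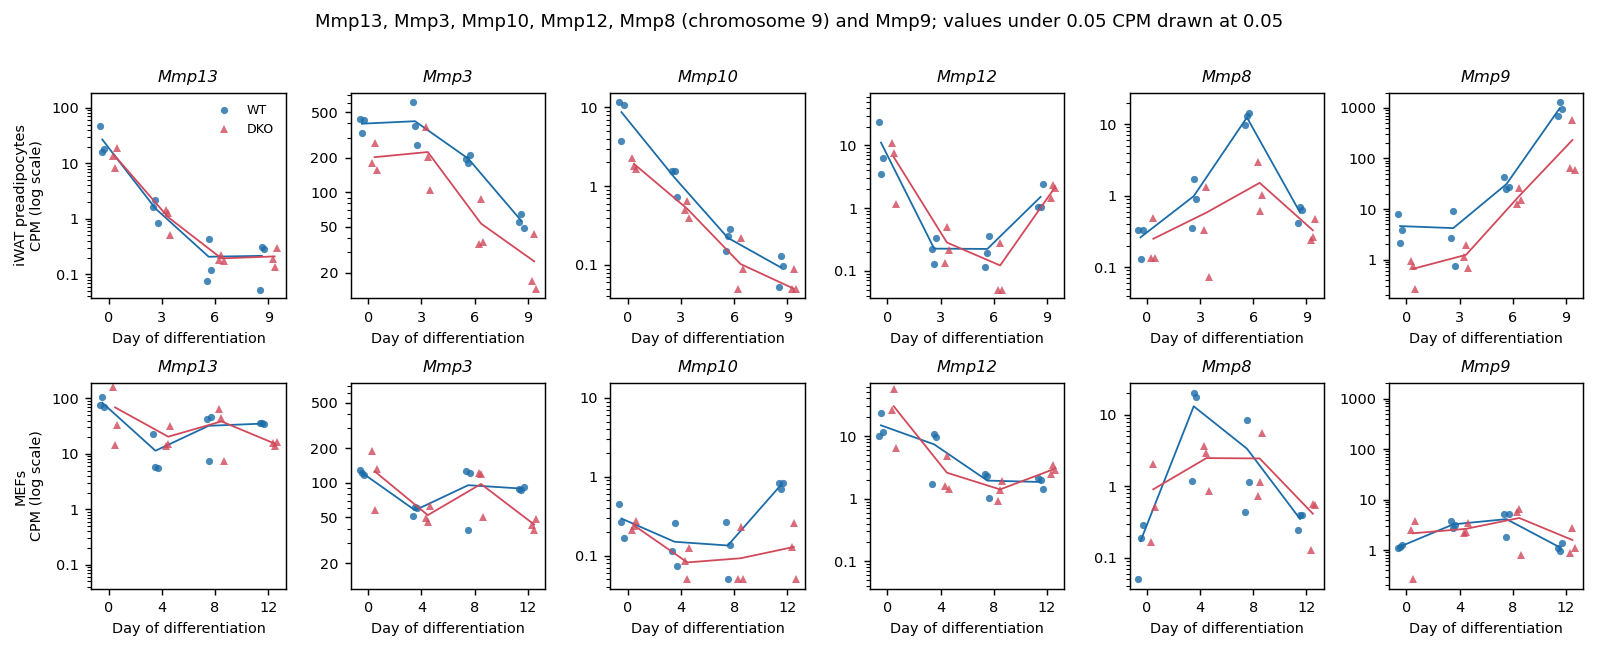
CPM on a log axis of Mmp13, Mmp3, Mmp10, Mmp12, Mmp8 and Mmp9 (columns) in iWAT cells and MEFs (rows) by day, points for libraries and lines for group means, with values under 0.05 CPM drawn at 0.05. Mmp13 and Mmp10 drop from day 0 in iWAT cells, Mmp8 peaks on iWAT day 6 in WT (9.77 to 14.4 CPM) but less in DKO (0.605 to 2.92 CPM), and Mmp9 climbs to 704 to 1308 CPM on day 9 in WT.

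The gelatinase gene Mmp2 moved in opposite directions in the 2 cell types, whereas Mmp14, which encodes the membrane enzyme that activates it, ended lower in both. Mmp2 in WT iWAT cells was at 608, 489 and 668 CPM on day 0, 687, 951 and 953 on day 3 and 292, 276 and 294 on day 9 (log2 fold change -1.03, SE 0.20, adjusted p = 0.000142). In WT MEFs it went from 684, 675 and 704 CPM to 1086, 1056 and 1073 on day 12 (0.64, SE 0.21, adjusted p = 0.0219) and became the top member per length, at 318 ± 4.43 RPKM. Mmp14 fell in WT iWAT cells from 782, 797 and 768 CPM to 213, 206 and 199 on day 9 (-1.93, SE 0.18, adjusted p = 2.32e-08), and in WT MEFs from 776, 786 and 792 CPM to 577, 552 and 541, which was below the fold limit (-0.50, SE 0.17, adjusted p = 0.0265).

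Other MMPs completed the ends of the ranking. Mmp16, a membrane-type enzyme, fell in WT iWAT cells from 6.38, 8.23 and 11.9 CPM to 0.523, 0 and 0.287 on day 9 (-5.06, SE 0.83, adjusted p = 2.48e-05) and in WT MEFs from 20, 16.2 and 16.9 to 6.7, 6.97 and 5.94 on day 12 (-1.44, SE 0.35, adjusted p = 0.00324). Mmp25, anchored in the membrane by a lipid, was called lower in WT MEFs on day 12 with 1, 0 and 0 counts after 9, 16 and 16 counts on day 0, a ratio of 0.0274 with an exact 95% interval from 0.000678 to 0.162 that covers counting error only. Mmp19, a secreted enzyme, rose in WT MEFs from 76.4, 69.1 and 74.6 CPM to 145, 154 and 146 (1.02, SE 0.12, adjusted p = 3.92e-06), one of the 4 members to do so by day 12 beside Mmp2, Adamts12 and Adamts15; the calls of these other 3 were lost when some library was left out. Mmp28 rose in WT iWAT cells to 33.3, 36 and 36.9 CPM on day 6, from 4.29, 5.92 and 3.77 on day 0 (2.92, SE 0.25, adjusted p = 5.03e-09).

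ADAMTS genes with proteoglycan substrates did not move as one in WT cells. Adamts15, which can cut aggrecan and versican, rose in WT iWAT cells from 14.5, 18.5 and 34.4 CPM on day 0 to 200.1, 224 and 311 on day 3 and 333, 251 and 303 on day 6, and stood at 84.6, 63.4 and 73.5 CPM on day 9 (day 9 log2 fold change 1.72, SE 0.36, adjusted p = 0.000397). It did so in WT MEFs too, with 49.1, 89.3 and 48.2 CPM on day 0, 339.7, 159 and 345 on day 8 and 139, 127 and 132 on day 12 (1.09, SE 0.31, adjusted p = 0.00989). Adamts4, an aggrecanase, fell in WT iWAT cells from 51.5, 46.2 and 49.2 CPM to 9.36, 6.78 and 6.95 on day 9 (-2.67, SE 0.30, adjusted p = 2.52e-07). Adamts5, the other main aggrecanase, rose there from 221, 249 and 247 to 379, 393 and 384 CPM (0.69, SE 0.26, adjusted p = 0.0267), a call that was lost when some library was left out.

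The enzymes that remove the aminopropeptide of fibrillar procollagens differed in the same way. Adamts2 rose in WT iWAT cells from 225, 271 and 238 CPM to 462, 429.9 and 446 on day 9 (log2 fold change 0.87, SE 0.19, adjusted p = 0.000622), whereas Adamts14 fell from 20.9, 13.5 and 19.2 to 2.77, 2.57 and 2.16 CPM (-2.84, SE 0.29, adjusted p = 6.16e-08). Adamts3 was called higher on days 3 and 6, and both calls were lost when some library was left out. On day 9 it stood at 4.5, 1.65 and 2.44 CPM after 1.02, 1.52 and 1.44 on day 0 (1.10, adjusted p = 0.18). Adamts12, which cuts cartilage oligomeric matrix protein, fell in WT iWAT cells from 207, 175 and 127 to 84.7, 84.8 and 87.7 CPM (-0.98, SE 0.29, adjusted p = 0.00553) but rose in WT MEFs from 177, 144 and 178 to 279, 279 and 274 CPM (0.74, SE 0.26, adjusted p = 0.0329).

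At the low end, Adamts19 had 0 counts in each WT iWAT library on day 0. It then had 9, 23 and 47 counts on day 3, 19, 15 and 20 on day 6 and 5, 10 and 4 on day 9, which is at least 23.7-fold, 16-fold and 6.93-fold higher than a floor of 3 counts over the 3 libraries of day 0. In WT MEFs Adamts19 held 0.665, 4.6 and 0.618 CPM on day 0 and 0, 0.109 and 0.176 on day 12 (-4.25, SE 1.56, adjusted p = 0.0388). That MEF call was lost when some library was left out.

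The ADAMTS-like genes also split. Adamtsl2, whose product binds fibrillin, rose in WT iWAT cells from 1.64, 1.44 and 2.28 CPM to 22, 19.5 and 19.9 on day 6 and 9.36, 7.3 and 12.2 on day 9 (log2 fold change 2.43, SE 0.36, adjusted p = 6.98e-06). Adamtsl3 fell from 19.8, 37.8 and 13.3 to 0.523, 0.217 and 0.431 CPM (-5.93, SE 0.80, adjusted p = 3.03e-06). In WT MEFs Adamtsl3 was at 43.1, 22.8 and 45.2 CPM on day 0 and 58.7, 62.3 and 58.1 on day 12, with no called change (0.69, adjusted p = 0.306).

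The study asked what the loss of both HMGN proteins does during the change to brown-like adipocytes, and for the protease set most of the called members of iWAT cells came on day 6. On day 0, 0 of 38 tested members were called by edgeR (9 at an unadjusted p below 0.05), where 0.218% of all genes tested were called. On day 3 it was 0 of 37 (4 at an unadjusted p below 0.05, all genes 0.337%). Each iWAT day was judged by the spread of its own libraries. Their chi-square of counts per degree of freedom was 22.8 to 78.1 on day 3 and 16.1 to 35.6 on day 6. The counts of calls therefore do not date the start or the end of a difference in iWAT cells. DESeq2 called 4 members on day 0 (Adamts2, Mmp3, Mmp9 and Mmp10) and 1 on day 3 (Mmp28). On day 0 each DKO library lay below each WT library for Mmp3, Mmp9 and Mmp10, and above for Adamts2. Mmp3 was then at 181.8 to 240.3 RPKM in WT and 86.5 to 150.7 RPKM in DKO.

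On iWAT day 6, 16 of 34 tested members were called, against 11.6% of all genes tested. Of these, 15 were lower in DKO, where 6.54% of all genes were, and 1 was higher, where 5.03% were. The median member fell by 0.69 on the log2 scale, while the median of all genes was -0.01. The WT and DKO libraries did not overlap for 20 members that were lower and 5 that were higher in DKO, out of 34, and for 43.0% of all genes. By family, 7 of 13 ADAMTS, 0 of 5 ADAMTSL, 6 of 12 MMP and 3 of 4 TIMP genes were called. Of the 16, 8 were called whichever library was left out: Adamts4, Adamts5, Adamts12, Adamts19, Mmp2, Mmp14, Mmp17 and Timp2; without replicate 3 of WT 9 members were called, and without replicate 3 of DKO 10.

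Marker lists moved on the same day. Macrophage markers summed to 5877.7, 10002.7 and 9868.1 CPM in WT and 4829.3, 2190.1 and 3279.5 CPM in DKO iWAT cells on day 6; 1 of 8 was called, Lyz2, and their median log2 fold change was -1.08, with each DKO sum below each WT sum. The defining genes were far from 0, Csf1r at 225 to 407 CPM in WT and 75.5 to 287 CPM in DKO. Adipocyte markers summed to 19741.2 to 23853.1 CPM in WT and 26153.0 to 32252.1 CPM in DKO, with 0 of 7 called and a median of 0.45. Markers of brown adipocytes, of which none was at 0, summed to 183.7 to 292.4 CPM in WT and 597.4 to 764.0 CPM in DKO, with 4 of 4 called higher (Ucp1, Cidea, Elovl3 and Cox7a1) and a median of 1.88. Markers of preadipocytes and fibroblasts summed to 2708.0, 2244.8 and 2535.3 CPM in WT and 1055.2, 1238.5 and 867.1 CPM in DKO, with Col1a1, Pdgfrb and Thy1 called lower and Dlk1 higher of 7 tested (median -0.91). The part of these lists in the protease differences was not tested.

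**Figure D4:**
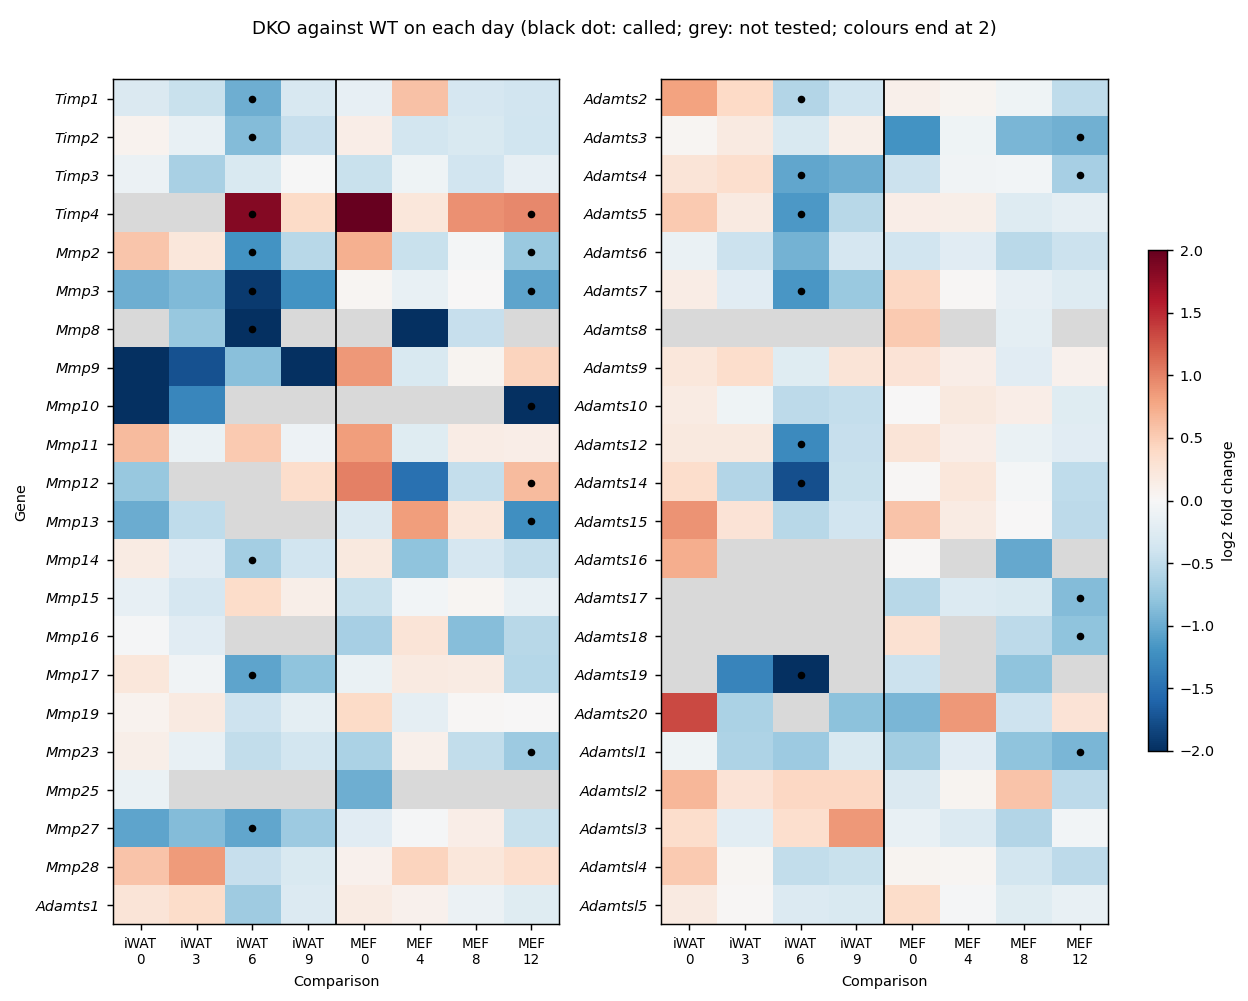
Colour gives the log2 fold change of DKO against WT for each tested member (rows) on each day of iWAT cells and MEFs (columns); a black dot marks a called change, grey an untested one, and colours end at 2. Dots stand in the iWAT day 6 column (16 of 34) and the MEF day 12 column (12 of 39) and in no other.

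Of the inhibitors, 3 were called on iWAT day 6. Timp2 was at 458, 400.4 and 458 CPM in WT and 290.1, 253 and 201 in DKO (log2 fold change -0.86, SE 0.14, adjusted p = 0.00702). Timp1 was at 331, 392 and 382 CPM in WT and 194, 264 and 120.2 in DKO (-0.97, SE 0.26, adjusted p = 0.0409). Neither pair of groups overlapped. Timp4 was the member that was higher, with 0.376, 0.578 and 0.0404 CPM in WT, from 10, 15 and 1 counts, and 1.51, 1.21 and 0.969 in DKO (1.83, SE 0.55, adjusted p = 0.0497), close to the threshold. Timp3, at 66.6, 62.1 and 70.6 CPM in WT and 75.3, 48.2 and 40.9 in DKO, overlapped between the genotypes (-0.31, adjusted p = 0.353).

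Mmp2 and Mmp14 were both called lower. Mmp2 was at 495, 346 and 499 CPM in WT and 197, 214 and 190.4 in DKO on day 6 (log2 fold change -1.19, SE 0.15, adjusted p = 0.00385), and each DKO library lay below each WT library. Mmp14 was at 172, 133 and 156 CPM in WT and 94.3, 105 and 95.9 in DKO (-0.68, SE 0.11, adjusted p = 0.00635). Mmp17, a membrane-anchored relative, was at 15.5, 12.4 and 12 CPM in WT and 8.09, 6.76 and 4.93 in DKO (-1.05, SE 0.19, adjusted p = 0.01). The other gelatinase gene, Mmp9, was at 42.4, 24.5 and 26.7 CPM in WT and 12.8, 26.4 and 15.2 in DKO, which overlapped (-0.83, adjusted p = 0.131).

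The chromosome 9 cluster held 3 called genes. Mmp8 had the largest fitted fall among the 16 called members, from 9.77, 13.1 and 14.4 CPM in WT to 2.92, 0.605 and 1.01 in DKO (log2 fold change -3.04, SE 0.50, adjusted p = 0.0112). Mmp3 was at 195, 182 and 212 CPM in WT and 35.4, 87.8 and 37.2 in DKO (-1.92, SE 0.37, adjusted p = 0.0201). Mmp27 was at 2.52, 2.35 and 1.82 CPM in WT and 1.14, 0.934 and 1.23 in DKO (-1.04, SE 0.23, adjusted p = 0.0186). Mmp8 and Mmp27 are the cluster genes without the AP-1 motif in their windows, and Mmp10, Mmp12 and Mmp13 had too few reads on that day to be tested.

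Of the procollagen aminopropeptidases, Adamts2 was at 313, 292 and 298 CPM in WT and 193, 247 and 176 in DKO on iWAT day 6 (log2 fold change -0.59, SE 0.12, adjusted p = 0.0136). Adamts14 was at 1.5, 1.04 and 1.33 CPM in WT and 0.365, 0.66 and 0.176 in DKO (-1.76, SE 0.41, adjusted p = 0.0201), from 4 to 40 counts a library. Adamts3 overlapped between the genotypes (-0.31, adjusted p = 0.793).

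Both aggrecanases were lower. Adamts4 was at 21.9, 13.4 and 20.1 CPM in WT and 8.77, 9.4 and 9.56 in DKO (log2 fold change -1.04, SE 0.18, adjusted p = 0.00892), and Adamts5 at 226, 152 and 194 CPM in WT and 97, 97.5 and 70.9 in DKO (-1.15, SE 0.18, adjusted p = 0.00723). Adamts7 and Adamts12, which share cartilage oligomeric matrix protein as a substrate, fell by like amounts. Adamts12 was at 163, 112 and 177 CPM in WT and 65.2, 61.6 and 64.6 in DKO (-1.28, SE 0.17, adjusted p = 0.00457), and Adamts7 at 2.44, 1.85 and 3.07 in WT and 1, 1.15 and 1.19 in DKO (-1.17, SE 0.25, adjusted p = 0.0163). The low-count Adamts19 was at 0.714, 0.578 and 0.807 CPM in WT and 0.183, 0.11 and 0.044 in DKO (-2.62, SE 0.46, adjusted p = 0.0087), from 4, 2 and 1 counts in DKO. In none of these genes did the genotypes overlap.

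**Figure D5:**
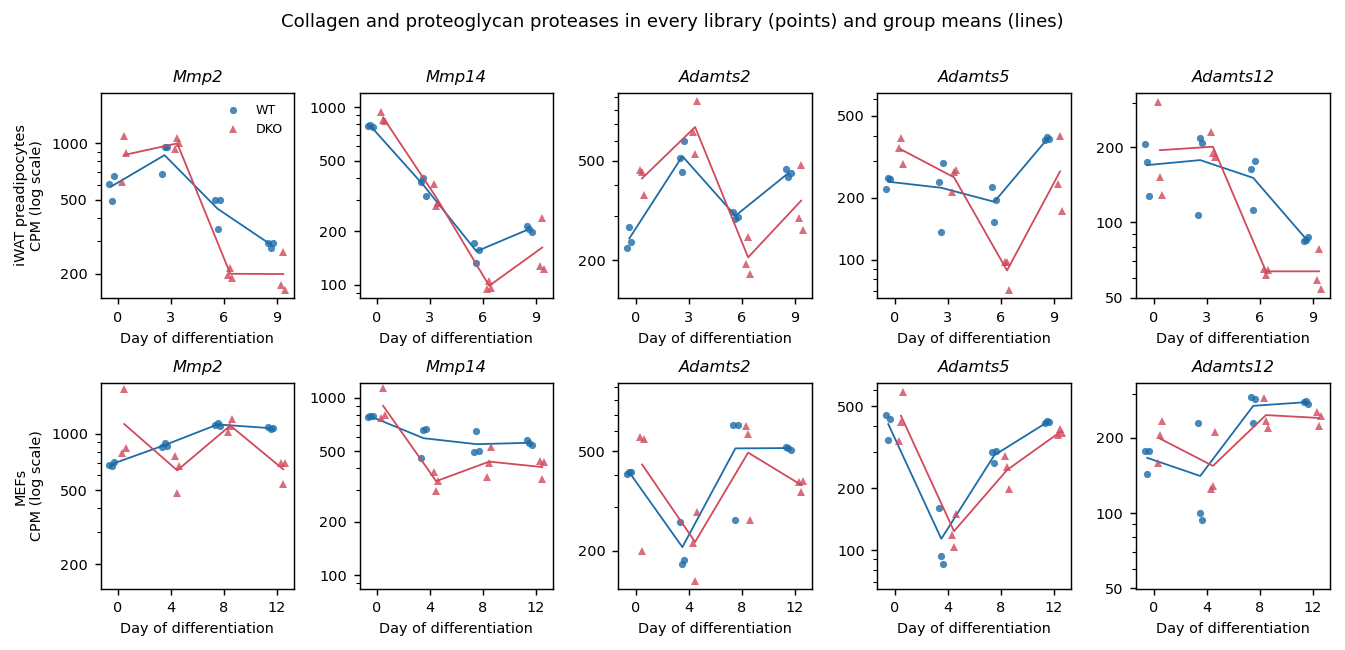
CPM on a log axis of Mmp2, Mmp14, Adamts2, Adamts5 and Adamts12 (columns) in iWAT cells and MEFs (rows) by day, each point 1 library and each line a genotype's mean. In iWAT cells the DKO points of Adamts2 lie above the WT points on day 0 (366 to 459.5 against 225 to 271 CPM) and below them on day 6 (176 to 247 against 292 to 313 CPM), and all 5 genes are lower in DKO on day 6.

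On iWAT day 9 edgeR called 0 of 34 tested members (8 at an unadjusted p below 0.05), where 1.24% of all genes were called; DESeq2 called 1. The genotypes did not overlap for 8 members that were lower and 2 that were higher in DKO, against 34.6% of all genes, and the median member was at -0.37. Mmp9 was lower in each DKO library (log2 fold change -2.12, SE 0.91, adjusted p = 0.197). Mmp2 was at 292, 276 and 294 CPM in WT and 175, 261 and 164 in DKO (-0.56, SE 0.17, adjusted p = 0.105), and Mmp3 at 55.4, 64.5 and 49.1 in WT and 16.9, 43.8 and 14.5 in DKO (-1.20, SE 0.41, adjusted p = 0.129). In each of these the DKO library that stands apart, replicate 2, was closest to WT. Without it 12 members were called, among them Mmp2, Mmp3, Mmp9, Mmp14, Timp2, Adamts2, Adamts5 and Adamts12. The share of all genes called without it was not counted. High Mmp9, Mmp14 and Adamts5 were among the traits that set it apart, so the calls of these genes are not independent of leaving it out. Macrophage markers summed to 3156.9, 6398.4 and 5290.3 CPM in WT and 3060.2, 1419.5 and 1876.5 CPM in DKO on that day, so replicate 2 of DKO was the lowest. Markers of preadipocytes and fibroblasts summed to 4300.0, 3894.9 and 4472.4 CPM in WT and 2295.0, 4295.0 and 1588.8 CPM in DKO, where replicate 2 lay within the WT range and the other 2 below it. In neither list was a gene called, of 8 each, and their part in these values was not tested.

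A test of whether the genotype difference changed over the 4 days of iWAT cells called 2 of 42 members at an adjusted p below 0.05, where 2.12% of all genes were called, and 14 members had an unadjusted p below 0.05. Mmp2 was the first, with an adjusted p = 0.012: its DKO minus WT log2 fold change was 0.56 on day 0, 0.22 on day 3, -1.19 on day 6 and -0.56 on day 9. Adamts2 was the other, with an adjusted p = 0.0288: its change was 0.80, 0.40, -0.59 and -0.40 on these days. On day 0 its DKO libraries held 459.5, 449 and 366 CPM and its WT libraries 225, 271 and 238 CPM, each DKO library above each WT library (adjusted p = 0.0806). Mmp2 kept its call whichever of the 24 libraries was left out, Adamts2 lost it for 8 of the 24, and without replicate 2 of DKO on day 9 the count was 7.

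In MEFs edgeR called members between genotypes on the last day only, and each day was judged by the spread of its own libraries. On day 12 libraries of a group lay close together. Their chi-square of counts per degree of freedom was 2.18 to 3.58 in WT and 3.01 to 12.6 in DKO. On earlier days it reached 96.3 in WT and 168.2 in DKO. The days thus differed in what could be called, and the calls do not date the start of a difference. On day 0 edgeR called 0 of 42 tested members (5 at an unadjusted p below 0.05), with 0.102% of all genes called; on day 4 it called 0 of 38 (3 at an unadjusted p below 0.05; all genes 0.0905%), and on day 8 it called 0 of 42 (6 at an unadjusted p below 0.05; all genes 0.0595%). DESeq2 called 1 member on each of these days. On day 8 the outcome rested on the 2 libraries low in fat cell markers. Without both, 6 members were called (5 lower and 1 higher), namely Adamts3, Adamts6, Adamtsl1, Adamtsl2, Adamtsl3 and Mmp16. The share of all genes called without them was not counted.

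On MEF day 12, 12 of 39 tested members were called, against 7.98% of all genes tested; 10 were lower in DKO (all genes 4.05%) and 2 were higher (all genes 3.92%). The median member fell by 0.43, while that of all genes was 0.00. The genotypes did not overlap for 27 members that were lower and 3 that were higher, against 47.0% of all genes. By family, 4 of 15 ADAMTS, 1 of 5 ADAMTSL, 6 of 15 MMP and 1 of 4 TIMP genes were called. When all 24 MEF libraries were fitted together and shared 1 estimate of the spread, 0 of the 12 were called, and 5 were when the 4 libraries that stand apart were left out of that fit: Adamts4, Mmp2, Mmp3, Mmp10 and Mmp23.

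The cluster on chromosome 9 held 4 of the called genes. Mmp13 was at 35.6, 35.4 and 34.4 CPM in WT MEFs and 15.8, 14.1 and 16.2 in DKO (log2 fold change -1.22, SE 0.07, adjusted p = 8.86e-09), and Mmp3 at 88.8, 86.2 and 92.7 in WT and 42.7, 38.9 and 48.5 in DKO (-1.06, SE 0.07, adjusted p = 2.61e-08). Mmp10 was at 0.838, 0.69 and 0.836 CPM in WT, from 17, 19 and 19 counts, and at 0.127, 0.258 and 0 in DKO, from 3, 5 and 0 counts (-2.56, SE 0.59, adjusted p = 0.00302). Mmp12 went the other way, with 2.17, 1.96 and 1.41 CPM in WT and 2.49, 3.45 and 2.88 in DKO (0.64, SE 0.24, adjusted p = 0.0463), near the threshold. Mmp8 was below 0.6 CPM in all 6 libraries and was not tested.

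Beyond the cluster, Mmp2 was at 1086, 1056 and 1073 CPM in WT and 696, 540.0 and 700.2 in DKO MEFs (log2 fold change -0.75, SE 0.10, adjusted p = 0.000911). Mmp23 was at 25.6, 24.5 and 22.5 CPM in WT and 16.2, 12.8 and 15.3 in DKO (-0.73, SE 0.09, adjusted p = 1.76e-05). Mmp14 was lower in each DKO library, 438, 349 and 432 against 577, 552 and 541 CPM, but by less than the fold limit (-0.48, SE 0.08, adjusted p = 0.00215).

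Of the inhibitors, 1 of 4 was called on MEF day 12. Timp4 was higher in DKO, at 2.91, 2.65 and 2.77 CPM in WT and 5.62, 6.33 and 4.51 in DKO (log2 fold change 0.96, SE 0.18, adjusted p = 0.000518). Timp1 and Timp2 were lower in each DKO library by less than the fold limit (-0.39, adjusted p = 0.000508, and -0.40, adjusted p = 0.00438). Timp3 was at 513, 515 and 528 CPM in WT and 502, 408 and 508 in DKO, lower in each library by a small amount (-0.16, adjusted p = 0.144).

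Among ADAMTS and ADAMTSL genes, Adamts3 was at 5.37, 4.94 and 4.97 CPM in WT MEFs and 2.45, 2.21 and 3.31 in DKO (log2 fold change -0.96, SE 0.18, adjusted p = 0.000697), and Adamts4 at 11.7, 12.3 and 14 in WT and 8.24, 8.91 and 7.17 in DKO (-0.67, SE 0.12, adjusted p = 0.00032). Adamtsl1 was at 38.5, 41.8 and 42.9 CPM in WT and 25.2, 18.4 and 22.7 in DKO (-0.91, SE 0.10, adjusted p = 8.69e-06). Adamts18 was at 1.97, 1.67 and 1.85 CPM in WT and 1.18, 1.08 and 0.869 in DKO (-0.81, SE 0.28, adjusted p = 0.0336). Adamts17, at 1.72, 2.91 and 3.61 in WT and 1.52, 1.85 and 1.25 in DKO, was called although the genotypes overlapped (-0.86, SE 0.28, adjusted p = 0.0272). Adamts17, Adamts18 and Mmp12 were the called members that lost the call when some library was left out.

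Summed adipocyte markers were higher in DKO MEFs on day 12, at 25000.0 to 26250.3 CPM against 16465.6 to 16840.2 CPM in WT; 4 of 8 were called (Adipoq, Cidec, Fabp4 and Plin1). Macrophage markers summed to 3134.0 to 3608.1 CPM in DKO and 4847.7 to 4901.9 CPM in WT, with Lyz2 called of 8. Brown adipocyte markers summed to 320.1 to 331.0 CPM in DKO and to at most 137.7 CPM in WT, with 4 of 4 called higher, and markers of preadipocytes and fibroblasts to 4997.5 to 5209.6 CPM in DKO and 6981.2 to 7304.9 CPM in WT, with Col1a1, Dlk1 and Pi16 called lower of 8. Of the lists at lower levels, endothelium had 2 of 4 and mural and smooth muscle cells 2 of 5 called lower, and epithelium had 3 of 4 and skeletal muscle 1 of 1 called higher. The part of these lists in the protease differences was not tested. Across 4 days of MEFs the test of a changing genotype difference called 0 of 44 members (8 at an unadjusted p below 0.05; all genes 0.0177%), DESeq2 called 2, and 7 were called without the 4 libraries that stand apart.

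Timp4, Mmp2, Mmp3 and Adamts4 were called both on iWAT day 6 and on MEF day 12, which is 4 of the 16 and 4 of the 12 called members. How many of all genes were called on both days was not counted, so the number is no trait of this set. The iWAT day 6 calls of Timp4 and Mmp3 were lost when some library was left out. Timp4 was higher in DKO in both and the other 3 lower. Of the rest, Mmp14 was called on iWAT day 6 with -0.68 and stood at -0.48 on MEF day 12, and Mmp13 was called on MEF day 12 and had too few reads on iWAT day 6.

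Other genes of the same pathway were counted beside the shares of all genes on iWAT day 6, 5.03% higher and 6.54% lower. Among activators and other matrix proteases, 1 of 23 tested genes was higher and 11 were lower in DKO iWAT cells on day 6 (median log2 fold change -0.58), the higher one being Bsg, the MMP inducer on cell membranes (1011, 1165 and 944 CPM in WT, 1733, 1779.5 and 2014 in DKO; 0.79, SE 0.12, adjusted p = 0.00549). The lower ones included the collagen-cutting membrane protease gene Fap (13.6, 10.2 and 11.7 CPM in WT, 3.97, 3.46 and 4.45 in DKO; -1.61, SE 0.17, adjusted p = 0.00214), the urokinase gene Plau with its receptor gene Plaur, and the procollagen C-proteinase gene Bmp1. Among other inhibitors and binding partners 1 of 15 was higher and 6 were lower (median -0.34), including the membrane-anchored MMP inhibitor gene Reck. Among matrix substrates 1 of 14 was higher and 8 were lower (median -0.70).

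Col1a1 and Vcan were among the 8 lower substrates. Col1a1 was at 1417, 1297 and 1487 CPM in WT and 452, 494 and 442 in DKO iWAT cells on day 6 (log2 fold change -1.63, SE 0.10, adjusted p = 0.000234), and the versican gene Vcan at 590.0, 489 and 661 in WT and 309, 414 and 334 in DKO (-0.76, SE 0.15, adjusted p = 0.0114). On MEF day 12, where 3.92% of all genes were higher and 4.05% lower, the 3 lists gave 0 higher and 4 lower of 24 (median -0.23), 0 and 2 of 16 (median -0.23) and 0 and 6 of 15 (median -0.57). Fap, Bmp1, Col1a1, Col3a1, Lum and Vcan were among the genes called lower on both days, and Vcan was at 1222, 1240.3 and 1237 CPM in WT and 742, 697 and 726 in DKO MEFs (-0.80, SE 0.04, adjusted p = 1.85e-09).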

How the data were processed

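RNA from 48 libraries was sequenced by the authors, who trimmed reads with cutadapt 1.18 after bcl2fastq 2.17, aligned them to mm10 with STAR 2.7.0f and counted genes with RSEM 1.3.0; the deposited values are expected counts per gene, 1 table for each cell type. The labels name polyA RNA and the study's methods a stranded total RNA kit; the strand setting of the counting is not given in the sources used here. Expected counts were rounded and tested in edgeR 4.0.16 (R 4.3.3) by the quasi-likelihood test, with TMM scaling and edgeR's filter on low counts. WT and DKO were compared within a day over 6 libraries; days, and the change of the genotype difference over days (an F test, adjusted p below 0.05), were tested in a fit of the 24 libraries of a cell type. P-values were adjusted over all genes tested. DESeq2 1.42.0, limma 3.58.1, other filters and leaving out libraries served as alternatives. Nothing in the labels ties a library to its own animal, so p-values measure the spread between these libraries. All 55450 gene IDs matched GENCODE M21. RPKM is CPM per kilobase of merged exons. The scripts were tested on simulated data. Members and lists were chosen with earlier results of these data known. Values in every library are given for Timp1 to Timp4, Mmp2, Mmp3, Mmp14 and members called in a genotype comparison, and for the 5 largest called rises and falls of WT cells from day 0 to the last day; further members described were picked after their values were seen.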

Additional observations from a re-analysis of the deposited data

Results flagged for a closer look

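The genotype difference of Mmp2 changed over the days of iWAT cells, with an adjusted p = 0.012 in edgeR's test of that change, from 0.56 on day 0 to -1.19 on day 6 on the log2 scale. The genotype difference of Adamts2 did so with an adjusted p = 0.0288, from 0.80 on day 0 to -0.59 on day 6.

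Mmp2 and Adamts12 moved in opposite directions in the WT cells of the 2 sources, each with no overlap between the first and the last day. Mmp2 changed by -1.03 in iWAT cells by day 9 and by 0.64 in MEFs by day 12, and Adamts12 by -0.98 and 0.74. The MEF calls of both were lost when some library was left out. The difference between the cell types was not tested, and cell type, day, time in each medium and table cannot be told apart there.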

How the results depend on the processing

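Counts of called members below are given beside the count reported. With DESeq2, DKO against WT iWAT cells gave 4 members on day 0 and 1 on each of days 3 and 9, where 0 were reported, and 8 in place of 2 for the change of the genotype difference; DKO against WT MEFs gave 1 on each of days 0, 4 and 8 in place of 0, and 2 in place of 0 for the change over days. Without a filter on low counts, iWAT days 0 and 3 gave 1 each. With 1 fit over all days, iWAT day 0 gave 1, MEF days 0 and 4 gave 1 each, and MEF day 12 gave 0 in place of 12. Without a fold limit MEF day 12 gave 28, and with a log2 limit of 1 it gave 3, WT MEFs on day 8 gave 9 in place of 19 and on day 12 gave 9 in place of 14. With scaling by library size only, the change over days in iWAT cells gave 4. Leaving out libraries that stand apart, chosen after seeing the data, gave 6 on MEF day 8 and 7 for the change over days in MEFs. It gave 5 on MEF day 12 in 1 fit over all days. The 7 and the 5 left out replicate 2 of DKO on MEF day 0, which was not clearly the library apart. With libraries left out, the share of all genes called was not counted.

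Leaving out 1 library at a time gave ranges, lowest to highest, of 0 to 1 on iWAT day 0 (1 without WT replicate 2), 9 to 20 on day 6, 0 to 12 on day 9 and 1 to 7 for the change over days. In MEFs it gave 0 to 2 on day 0 and 0 to 3 for the change over days (both highest without DKO day 0 replicate 1), and 9 to 13 on day 12. The cause of these shifts was not tested.

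With the replicate number as a block, the count was 2 on iWAT day 3 and 4 for the change over days in iWAT cells, and it stayed within 1.5 times of the reported count in each other comparison, as on iWAT day 6 with 16 and MEF day 12 with 11. The 16 of iWAT day 6 were not the same genes: Mmp3, Timp1 and Timp4 lost the call and Adamts1, Adamts6 and Adamtsl1 gained it, and on MEF day 12 Mmp12 lost it. Same-numbered WT and DKO libraries deviated together, with a correlation over 0.1, in 5 of 12 iWAT pairs and 3 of 12 MEF pairs, so the numbers were not taken to pair the libraries. Same-numbered libraries of 2 days of a genotype did so in 12 of 36 iWAT pairs and 9 of 36 MEF pairs; all 3 replicates did for DKO iWAT days 0 and 3 (0.61, 0.47 and 0.57), DKO iWAT days 6 and 9 (0.57, 0.50 and 0.45) and WT iWAT days 6 and 9 (0.54, 0.33 and 0.19). The fits over 24 libraries treat these libraries as independent.

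Scaling by library size only put the median of all genes farthest from 0 in DKO iWAT cells on day 9, at -0.29 against -0.02 as reported. It gave 502 higher and 1243 lower genes on iWAT day 6, against 739 and 961 as reported, and 479 and 765 on MEF day 12, against 601 and 621. It turned the change of Timp1 in WT MEFs by day 12 from 0.12 to -0.02, neither called. Of the fold changes of named members, 318 kept direction and side of the threshold when 1 library was left out and 53 lost the threshold; under the other alternatives 390 did and 36 lost it. Low counts limit Timp4, Adamts14, Adamts19, Mmp10 and Mmp25.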
